A study of Mus musculus with 6 samples.

Results

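The DEAD-box and DEAH-box proteins are ATP-driven enzymes that open, clamp or remodel RNA and RNA-protein complexes. Their genes were taken from an RNA sequencing table of mouse bone marrow-derived macrophages as every row with a symbol that starts with Ddx or Dhx and a digit. The rule left out the interferon-linked sensors Ddx58 and Dhx58, the Y-linked Ddx3y and pseudogenes, which removed 3 of 54 rows. The remaining 51 rows, of 55401 in the table, are 50 helicase genes (35 Ddx and 15 Dhx) and Dhx58os, an antisense RNA that matches by name only and is described apart. The series compared 3 libraries labelled wild type (WT) with 3 labelled Mettl3-/- (KO). The Mettl3 protein is the active methyltransferase that places N6-methyladenosine on messenger RNA. In both groups the cells came from the femur and tibia marrow of C57BL/6 mice and were grown with 40 ng/mL M-CSF and 10% serum for 7 days ahead of a treatment, which no label specifies. How the Mettl3 allele was made, the age of the mice, and whether replicates are separate mice or cultures are not stated in the labels, so the p-values measure the spread between these libraries, which may be technical.

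DEAD-box proteins pull short RNA duplexes apart locally or act as clamps on RNA, whereas DEAH-box proteins move along a strand. Between them they act at nearly every step of a transcript's life: the rearrangements of the spliceosome, release of messenger RNA at the nuclear pore, scanning by the ribosome, decay of messenger RNA, and assembly of ribosomes in the nucleolus. Several also bind viral nucleic acid in innate immune cells such as macrophages, and Ddx60 is induced by interferon.

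The libraries held 67280390 to 77997742 estimated counts each. Levels are given as FPKM, which scales fragments by transcript length and by library, and fold changes come from a fit of the counts. Mettl3 itself was at a similar level in both groups. Its FPKM was 2.62, 2.91 and 2.26 in WT and 2.50, 2.56 and 2.93 in the libraries labelled KO. On the log2 scale the change was 0.02 (SE 0.114, 95% limits -0.29 to 0.34, edgeR adjusted p = 0.93). Permuting the 6 libraries exactly gave a two-sided p of 0.9, where 3 against 3 can reach no lower than 0.1. That small value changed sign when WT replicate 3 (-0.07) or KO replicate 3 (-0.06) was left out. The span of Mettl3 (chr14:52294841-52305128, -, mm10) overlaps that of Tox4 (chr14:52279146-52296401, +). Tox4 was at 17.7 FPKM in WT and 18.8 in the libraries labelled KO. The strand setting is not stated, and the share of Tox4 reads in the Mettl3 counts was not tested. Mettl3 reads do not verify the KO label here, and whether the allele leaves a transcript was not tested, so every direction below is that of the libraries labelled KO. The macrophage markers Adgre1, Csf1r, Cd68, Itgam, Lyz2, Mertk, Fcgr1 and Cd14 summed to 16500 to 16800 FPKM in WT and 8520 to 8620 in the libraries labelled KO, with 3 of the 8 called higher and 2 lower. Lyz2 alone went from 14200 to 6010 FPKM, and the other 7 summed to 2410 to 2490 in WT and 2540 to 2590 in the libraries labelled KO. Summed markers of T cells were 4.56 to 4.86 against 5.27 to 5.76 FPKM, those of neutrophils 9.57 to 11.0 against 8.6 to 9.3, and those of B cells 0.109 to 0.147 against 0.0803 to 0.307. Dendritic, stromal, mast and erythroid markers summed to at most 1.26 FPKM in any library. The erythroid genes Hba-a1 and Hbb-bs and the mast cell genes Mcpt4 and Fcer1a were listed at 0, no marker of these other cell types was called, and their part in the results below was not tested. In bulk RNA, fewer cells of a type and less RNA per cell cannot be told apart.

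Helicase genes were broadly expressed in these macrophages. Of the 50 genes, 46 had a mean FPKM of at least 1, 32 of at least 5, 21 of at least 10 and 2 of at least 50. The median over the 48 tested genes was 8.09 FPKM, against 2.84 over all 16256 tested genes, and 43 of the 48 lay above that median. Ddx genes had a median of 11.6 FPKM and Dhx genes of 4.47. The 6 most abundant were Ddx5, Ddx3x, Ddx17, Ddx39b, Ddx6 and Dhx38, which together made up 44.5% to 46.2% of the helicase total in each library. At the other end, the germ cell helicases Ddx25 and Ddx43 were listed at 0 in every library, and Ddx4, the mouse Vasa gene, was at 0.0414 to 0.130 FPKM. The plot of helicase levels shows the full order by role. Summed over the 50 genes, FPKM was 637, 639 and 642 in WT and 648, 655 and 641 in the libraries labelled KO, a ratio of 1.01. As a share of all FPKM this was 0.193% to 0.194% in WT and 0.201% to 0.206% in the libraries labelled KO, where total FPKM was also lower.

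**Figure D1:**
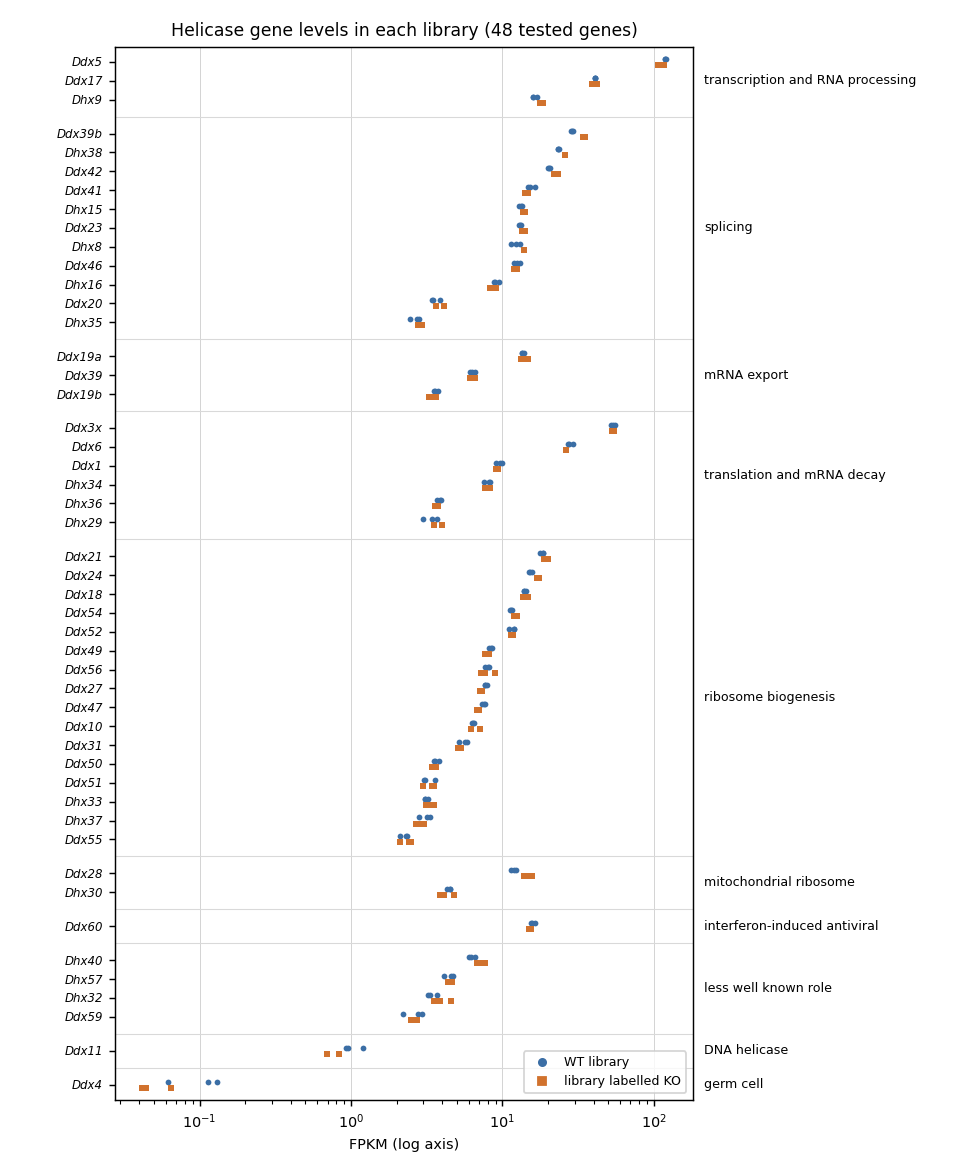
FPKM of the 48 tested helicase genes on a log axis, 1 row per gene ordered by role and level, with a blue circle for each WT library and an orange square for each library labelled KO. Levels run from 121 for Ddx5 to 0.0414 for Ddx4, and in most rows the 2 sets of 3 points lie close together.

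Few helicase genes passed the test between the groups, and those that did were modestly higher in the libraries labelled KO. Calls are those of edgeR's quasi-likelihood test at 0.05 after adjustment over all tested genes. Of the 48 tested helicase genes 5 were called, all higher: Ddx39b, Ddx28, Ddx24, Dhx9 and Dhx38. This is 10.4% of them, where 12.7% of all tested genes were called. By direction, 7.01% of all tested genes were called higher and 5.67% lower, while no helicase gene was called lower by edgeR. At an unadjusted edgeR p under 0.05 there were 9 higher and 5 lower helicase genes. The share of all tested genes at that unadjusted p was not counted, so these counts have no background here. DESeq2 called 6 helicase genes higher and 1 lower, Ddx5, where it called 1485 of all genes higher and 1188 lower. Every library labelled KO lay above every WT library in 12 of the 48 genes, or 25%, where 19.1% of all tested genes did so. Every one lay below in 6 of 48, or 12.5%, where 14.6% of all tested genes did so. Among genes with a mean FPKM of at least 1, 5 of 46 helicase genes were called, or 10.9%, where 17.6% of all such tested genes were.

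Changes were small in size. In absolute value the log2 fold change had a median of 0.0785 over the tested helicase genes and of 0.177 over all tested genes. Part of that gap goes with level: among genes with a mean FPKM of at least 1, the medians were 0.0741 for 46 helicase genes and 0.134 for 10816 genes. The signed median was -0.01, with 22 genes above 0 and 26 below. Between replicates, the median coefficient of variation of helicase FPKM was 3.56% in WT and 3.36% in the libraries labelled KO. This left narrow limits: for 30 of the 48 genes both 95% limits of the fold change lay within 1.2-fold in either direction and for 46 within 1.5-fold. Fitted changes over 1.1-fold occurred in 9 genes and over 1.2-fold in 3, Ddx28, Ddx11 and Ddx4. By name, 3 of 33 Ddx genes and 2 of 15 Dhx genes were called, where 12.7% of all tested genes were. The median log2 fold change was -0.03 for Ddx genes and 0.07 for Dhx genes.

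**Figure D2:**
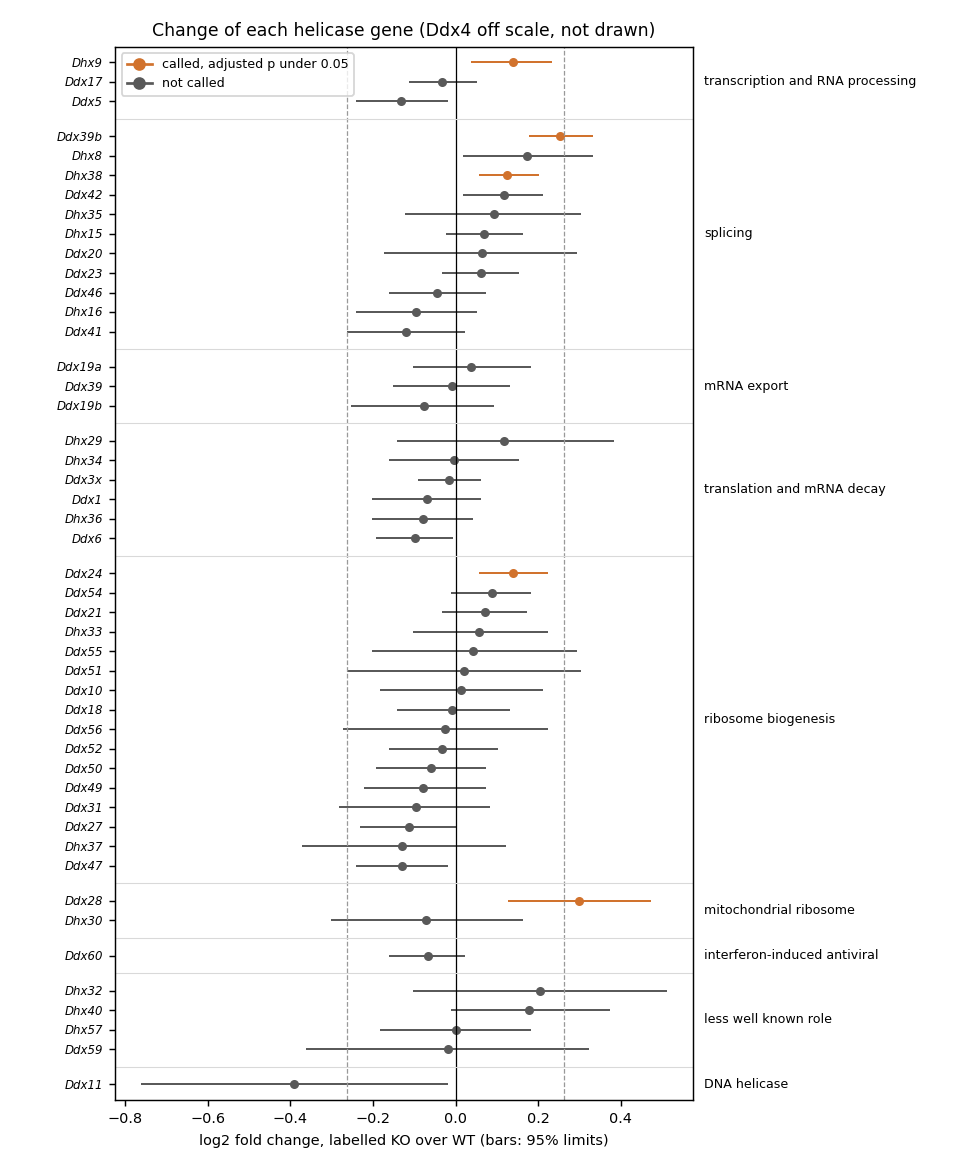
Fitted log2 fold change, libraries labelled KO over WT, for 47 of the 48 tested helicase genes, grouped by role, with bars for 95% limits, orange for called genes and dashed lines at 1.2-fold in either direction. The 5 called genes lie to the right of 0 at 0.13 to 0.30. Ddx4, at -1.04, is off the scale.

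Promoter sequence is given for 4 helicase genes. Ddx39b, Dhx9 and Ddx24 are 3 of the 5 called genes, and Ddx60 is the interferon-induced member that was not called. The other called genes are not printed: Dhx38 had no RefSeq promoter here, and the RefSeq start of Ddx28 lies 396 bases from the 5′ end of the deposited gene. Each printed sequence is the 150 bases before the start site in RefSeq on GRCm38.p6, written 5′ to 3′ on the gene's strand, with motif matches on either strand in capitals. Ddx39b is at chr17:35241596-35241745 (+), Dhx9 at chr1:153487661-153487810 (-), Ddx24 at chr12:103425848-103425997 (-) and Ddx60 at chr8:61927937-61928086 (+).
Ddx39b: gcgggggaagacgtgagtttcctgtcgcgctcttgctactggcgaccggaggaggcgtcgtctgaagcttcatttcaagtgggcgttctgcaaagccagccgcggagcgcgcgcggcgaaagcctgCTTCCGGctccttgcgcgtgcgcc
Dhx9: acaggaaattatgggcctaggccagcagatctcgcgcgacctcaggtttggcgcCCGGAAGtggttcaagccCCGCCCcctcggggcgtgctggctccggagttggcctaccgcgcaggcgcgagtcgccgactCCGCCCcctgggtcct
Ddx24: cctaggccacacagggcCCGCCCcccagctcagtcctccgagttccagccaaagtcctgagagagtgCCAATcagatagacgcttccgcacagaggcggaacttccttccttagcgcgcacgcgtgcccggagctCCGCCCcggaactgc
Ddx60: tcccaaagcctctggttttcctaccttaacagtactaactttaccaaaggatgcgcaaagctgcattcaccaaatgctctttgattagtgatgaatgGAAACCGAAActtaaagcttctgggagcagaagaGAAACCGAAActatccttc
The capitals mark an ETS core (CCGGAAG) in Ddx39b, an ETS core and 2 GC boxes (GGGCGG) in Dhx9, 2 GC boxes and a CCAAT box (CCAAT) in Ddx24, and 2 interferon-stimulated response elements (GAAANNGAAA) in Ddx60. Motifs were searched in windows of 250 bases before to 50 after the start, 1 window for each of the 45 helicase genes in the RefSeq table. Among them, 40.0% held an ETS core, against 8.9% of all 32851 windows and 19.8% of the 9820 windows of tested genes with an FPKM of at least 1. A CCAAT box stood in 51.1%, against 37.4% of both backgrounds. GC boxes were in 64.4%, against 35.7% of all windows and 63.0% of those of expressed genes. For the other motifs the share in helicase genes is followed by that in all windows and then that in windows of expressed genes. The response element was in 4.4%, against 3.4% and 3.6%, and a TATA box (TATAAA) in 2.2%, against 13.6% and 7.1%. An E-box (CACGTG) stood in 11.1%, against 7.2% and 10.5%. The core of an NRF1 site (GCGCATG) was in 15.6%, against 3.9% and 7.3%, and the YY1 core (AAGATGGCG) in 2.2%, against 1.4% and 3.6%. Of the 18 windows with an ETS core, those of Ddx39b and Dhx9 belong to called genes. For scale, 10.4% of tested helicase genes and 12.7% of all tested genes were called. The windows of the called genes Ddx24 and Ddx28 held no ETS core. These are matches of letters, without a measure of binding.

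Among helicases that act in transcription and RNA processing, Dhx9 rose and Ddx5 and Ddx17 did not pass the test. Dhx9, also known as RNA helicase A, unwinds RNA duplexes formed by inverted repeats and structures of RNA with DNA. It lies at chr1:153455758-153487660 (-, mm10). Its FPKM was 16.9, 15.9 and 15.9 in WT and 17.8, 17.9 and 18.5 in the libraries labelled KO. The groups did not overlap, although WT replicate 1 came within 1 FPKM of the lowest library labelled KO. The log2 fold change was 0.14 (SE 0.034, edgeR adjusted p = 0.0487). This call is at the edge of the threshold. With 1 library left out it held only without WT replicate 1 (edgeR adjusted p = 0.0317) and otherwise reached up to 0.151 without KO replicate 3. It was also lost without the filter on low counts (0.0704), with median-of-ratios factors (0.0529) and with a replicate block (0.126). With limma it was lost at pseudocounts of 0.1 (0.0509) and 0.01 (0.0525) and held at 1 (0.04999). It held with DESeq2 (0.022), the FPKM filter (0.0424) and library totals alone (0.0359).

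Ddx5, or p68, a coactivator of transcription and a cofactor of microRNA processing, was the most abundant helicase gene. Its FPKM was 118, 118 and 121 in WT and 106, 117 and 106 in the libraries labelled KO. Libraries 1 and 3 labelled KO lay well below WT, while KO replicate 2 lay just under it. The log2 fold change was -0.13 (SE 0.039, 95% limits -0.24 to -0.02), which edgeR did not call (adjusted p = 0.0798). It was called lower with DESeq2 (adjusted p = 0.04997) and without KO replicate 2 (-0.18, edgeR adjusted p = 0.00637). The processed pseudogene Gm12183, which holds 13.3% of the 50-base stretches of Ddx5 transcripts, was at 16.8 FPKM in WT and 14.8 in the libraries labelled KO, so reads of the pair may have been split between them. Ddx17, or p72, the close relative of Ddx5, was at 40.8, 40.6 and 40.7 FPKM in WT and 40.0, 41.9 and 39.1 in the libraries labelled KO. These overlap, and the 95% limits of its log2 fold change were -0.11 to 0.05.

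Splicing helicases held 2 of the 5 calls, Ddx39b and Dhx38, among 11 tested genes, where 12.7% of all tested genes were called. Their median log2 fold change was 0.07, with 8 above 0 and 3 below. Their summed FPKM was 153 to 155 in WT and 165 to 168 in the libraries labelled KO. That sum includes the called genes, Ddx39b at a mean of 28.7 against 34.6 FPKM and Dhx38 at 23.4 against 25.8. Ddx39b, or UAP56, acts early in spliceosome assembly and joins the TREX complex that hands spliced messenger RNA to export. It lies at chr17:35241746-35253707 (+, mm10). Its FPKM was 29.1, 28.6 and 28.4 in WT and 34.9, 34.1 and 34.8 in the libraries labelled KO. The gap between the groups was many times the spread within either, as the panels of called genes by library show. The log2 fold change was 0.25 (SE 0.027, 95% limits 0.18 to 0.33, edgeR adjusted p = 0.0024). Ddx39b was the helicase gene that stayed called in all 15 alternative settings, with adjusted p of 0.0101 to 0.0152 when each library was left out.

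Dhx38, the mammalian PRP16, remodels the spliceosome for the second catalytic step. It lies at chr8:109548011-109565861 (-, mm10). Its FPKM was 23.2, 23.6 and 23.3 in WT and 25.9, 25.7 and 25.8 in the libraries labelled KO. The groups were tight and apart. Its change was 0.13 on the log2 scale (SE 0.025, edgeR adjusted p = 0.0238), and the call was lost when any of the 6 libraries was left out (adjusted p = 0.0602 to 0.0797, lowest without WT replicate 2 and highest without KO replicate 3).

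**Figure D3:**
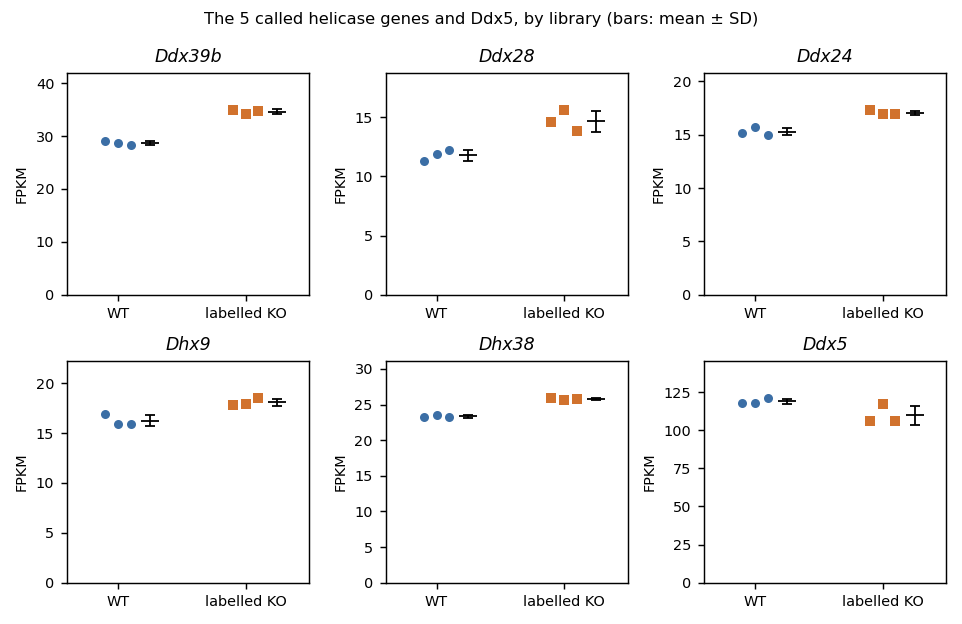
FPKM by library for the 5 called helicase genes and Ddx5, with each axis starting at 0, blue circles for WT, orange squares for libraries labelled KO, and bars for mean ± SD of 3 libraries. Ddx39b goes from 28.7 ± 0.38 to 34.6 ± 0.451, and Ddx5 from 119 ± 1.5 to 110 ± 6.05 with KO replicate 2 near WT.

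The other splicing helicases did not pass the test. Dhx8, the PRP22 counterpart that releases spliced messenger RNA, was at 11.3, 13.0 and 12.2 FPKM in WT and 13.9 in each library labelled KO (log2 fold change 0.17, edgeR adjusted p = 0.0973, and 0.0472 with DESeq2). Ddx42, which works with the branch site factor SF3B, was at 20.5, 20.1 and 20.4 in WT and 23.1, 21.8 and 22.0 in the libraries labelled KO (0.12, edgeR adjusted p = 0.0796, and 0.0487 when scaled by library totals alone). In both genes every library labelled KO lay above WT. So did those of Dhx15, which disassembles spliceosomes, and of Ddx23, a component of the U5 particle, at log2 fold changes of 0.07 and 0.06 (edgeR adjusted p = 0.237 and 0.312). Such a separation upward occurred in 19.1% of all tested genes. Ddx41, which also has a described role in sensing cytosolic DNA, lay the other way, at 15.1, 16.4 and 14.8 in WT and 14.3, 14.7 and 14.1 in the libraries labelled KO (-0.12, edgeR adjusted p = 0.206). Ddx46, Dhx16, Dhx35 and Ddx20 had overlapping groups and log2 fold changes of -0.05, -0.10, 0.09 and 0.06.

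The mRNA export helicases Ddx19a, Ddx19b and Ddx39 did not pass the test, with log2 fold changes of 0.04, -0.08 and -0.01. Ddx19 proteins strip export factors from messenger RNA at the cytoplasmic face of the nuclear pore. Ddx19a was at 13.4, 13.5 and 13.8 FPKM in WT and 14.3, 14.7 and 13.2 in the libraries labelled KO, and Ddx19b was at 3.57, 3.52 and 3.73 against 3.26, 3.65 and 3.46. Their values overlap between groups, and 28.1% of the 50-base stretches of Ddx19a are also in Ddx19b, so the split of reads between them is uncertain.

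None of the 6 helicases of translation and messenger RNA decay was called, where 12.7% of all tested genes were. Their log2 fold changes ran from -0.10 to 0.12. Ddx3x, which helps ribosomes through structured leader sequences, was at 55.4, 52.4 and 53.9 FPKM in WT and 54.9, 53.3 and 53.6 in the libraries labelled KO. Those values interleave, and the 95% limits of the log2 fold change were -0.09 to 0.06. Ddx6, a translational repressor and decapping cofactor of P-bodies, was at 27.6, 26.9 and 29.1 in WT and 26.4, 26.4 and 26.3 in the libraries labelled KO. Each library labelled KO lay under each WT library by a small margin (-0.10, SE 0.033, edgeR adjusted p = 0.108). Ddx1, part of the tRNA ligase complex, Dhx36, which unwinds G-quadruplexes, and Dhx34, a factor of nonsense-mediated decay, were at -0.07, -0.08 and -0.00. Dhx29, which binds the small ribosomal subunit during scanning, was at 0.12 with wide limits of -0.14 to 0.38.

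Ribosome biogenesis is the largest role in the family here, with 16 genes. Ddx24 alone of these was called, where 12.7% of all tested genes were. The 16 genes had a median log2 fold change of -0.02. They summed to 128 to 131 FPKM in WT and 130 to 134 in the libraries labelled KO. Ddx24, the counterpart of yeast Mak5 in assembly of the large subunit, lies at chr12:103407982-103425819 (-, mm10). Its FPKM was 15.2, 15.7 and 15.0 in WT and 17.3, 16.9 and 16.9 in the libraries labelled KO. No value overlapped. Its log2 fold change was 0.14 (SE 0.029, edgeR adjusted p = 0.0285); with 1 library left out the call held only without WT replicate 2 (0.0383), and adjusted p was 0.0722 to 0.0937 for the other 5, highest without KO replicate 1. Ddx21, which couples transcription and processing of ribosomal RNA, was at 18.6, 17.7 and 18.6 FPKM in WT and 19.9, 19.5 and 18.8 in the libraries labelled KO (0.07, edgeR adjusted p = 0.293). Its nucleolar relative Ddx50 was at 3.57, 3.81 and 3.55 against 3.56, 3.62 and 3.45.

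Of the remaining nucleolar helicases, Ddx54 lay higher in every library labelled KO (log2 fold change 0.09), and Ddx27 and Ddx47 lay lower in every one (-0.11 and -0.13). Of all tested genes, 19.1% lay higher and 14.6% lower in this way. Ddx47 was at 7.60, 7.29 and 7.63 FPKM in WT and 7.04, 6.97 and 6.80 in the libraries labelled KO. It was not called (edgeR adjusted p = 0.0788), but was when genes under a mean FPKM of 1 were left out of the test (0.0443). The groups overlapped for Ddx10, Ddx18, Ddx31, Ddx49, Ddx51, Ddx52, Ddx55, Ddx56, Dhx33 and Dhx37, whose log2 fold changes ran from -0.13 for Dhx37 to 0.06 for Dhx33.

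Of the pair of mitochondrial helicases, Ddx28 rose and Dhx30 did not pass the test. Both act in assembly of the mitochondrial ribosome. Ddx28 is a gene with a single exon at chr8:106009621-106011882 (-, mm10). Its FPKM was 11.3, 11.9 and 12.2 in WT and 14.6, 15.6 and 13.8 in the libraries labelled KO. The groups were apart, and the spread was wider than for the other called genes. Its log2 fold change was 0.30 (SE 0.061, 95% limits 0.13 to 0.47, edgeR adjusted p = 0.0246), the largest rise among the helicase genes. The call held without KO replicate 3 (0.0366) and was lost when any other library was left out, at up to 0.0791 without WT replicate 1. Dus2 on the opposite strand, which overlaps 3.2% of the exonic bases of Ddx28, was at 1.98 FPKM in WT and 2.39 in the libraries labelled KO (log2 fold change 0.25, edgeR adjusted p = 0.15), and its share in the Ddx28 counts was not tested. Dhx30 was at 4.30, 4.48 and 4.53 against 3.88, 4.12 and 4.81.

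Ddx60, the interferon-induced helicase with the 2 response elements printed above, was at 15.6, 15.4 and 16.4 FPKM in WT and 15.5, 15.3 and 15.0 in the libraries labelled KO. The values overlap, and the 95% limits of the log2 fold change were -0.16 to 0.02. Ddx11, a DNA helicase for cohesion of sister chromatids, was at 1.19, 0.952 and 0.931 in WT and 0.837, 0.837 and 0.697 in the libraries labelled KO (-0.39, 95% limits -0.76 to -0.02, edgeR adjusted p = 0.12). Every library labelled KO lay below WT, with WT replicate 1 the highest of all. Ddx4 had the largest fitted value, -1.04, on estimated counts of only 11 to 30, and its groups overlapped (edgeR adjusted p = 0.221). The 4 genes with a less well known role, Ddx59, Dhx32, Dhx40 and Dhx57, had log2 fold changes of -0.02, 0.20, 0.18 and 0.00. Of these only Dhx40 had groups that did not overlap, at 5.99, 6.60 and 6.18 against 6.95, 6.83 and 7.70 FPKM (edgeR adjusted p = 0.154). Every library labelled KO lay above WT, as in Dhx40, in 19.1% of all tested genes, and below, as in Ddx11, in 14.6%. The antisense RNA Dhx58os was near the lower end of detection, at 0.294, 0.185 and 0.219 FPKM in WT and 0.267, 0.201 and 0.121 in the libraries labelled KO (-0.27, SE 0.423).

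Ratios between close relatives were compared in each library. The FPKM ratio of Ddx39b to Ddx39 was 4.65, 4.37 and 4.65 in WT and 5.48, 5.58 and 5.33 in the libraries labelled KO, with Ddx39 itself at 6.26, 6.54 and 6.11 against 6.36, 6.10 and 6.54 FPKM. Ddx5 over Ddx17 was 2.90, 2.91 and 2.97 in WT and 2.66, 2.79 and 2.72 in the libraries labelled KO. In both pairs the 3 ratios of each group lay apart. Ddx21 over Ddx50 went from 5.03 ± 0.338 to 5.49 ± 0.11 (SD, n = 3 libraries), with every ratio in the libraries labelled KO above those of WT. Ddx19a over Ddx19b was 3.76 ± 0.0578 and 4.08 ± 0.296, where KO replicate 3, at 3.81, fell among the WT values. No test of these ratios was run.

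**Figure D4:**
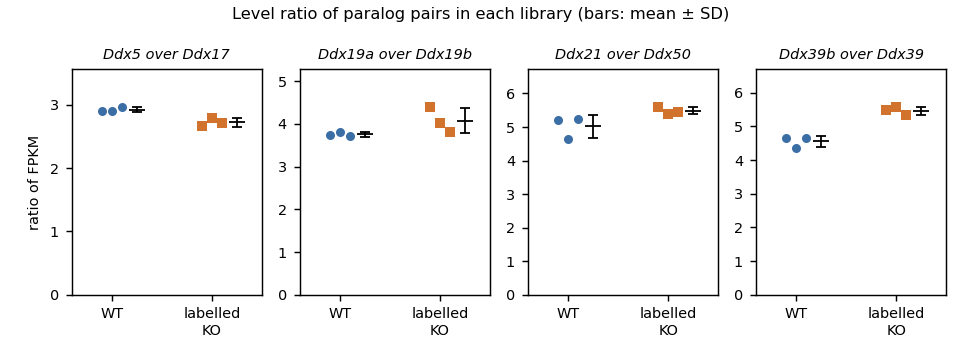
FPKM ratio within 4 pairs of related helicase genes in each library, with each axis starting at 0, blue circles for WT, orange squares for libraries labelled KO, and bars for mean ± SD of 3 libraries. Ddx39b over Ddx39 goes from 4.56 ± 0.16 to 5.46 ± 0.127, and Ddx5 over Ddx17 from 2.92 ± 0.0364 to 2.73 ± 0.0644.

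Overlapping and copied sequence touches some helicase genes more than others. In GENCODE M21, exons of 11 of the 50 helicase genes overlap a gene on the other strand, 5 of them by at least 10% of their exonic bases. Ddx39 shares 17.4% with Adgre5, which encodes the receptor CD97 and was at 25.6 FPKM in WT and 35.8 in the libraries labelled KO (log2 fold change 0.47, edgeR adjusted p = 0.00177). Ddx49 shares 29.8% with Homer3, and Ddx54 shares 14.2% with Gm43579. Without a stated strand setting, reads of such partners cannot be told apart, so the level of Ddx39 and its ratio to Ddx39b are uncertain. Of the 50-base stretches of Ddx18 transcripts, 51.4% recur in the pseudogene Gm16433. The called genes are largely free of copies: the largest share held by another gene was 1.1% for Ddx39b and Ddx28, 0.2% for Ddx24 and 0.1% for Dhx9. Annotated transcripts with a retained intron exist for 39 of the 50 genes and transcripts marked for nonsense-mediated decay for 13, and these are summed into the gene's value. FPKM was a fixed multiple of the library-scaled count for each helicase gene tested for it, so the table gives no view of isoform use.

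Few genes that work with the helicases passed the test. Of 57 tested rows for related helicases, cofactors and complexes, 1 was called higher and 1 lower, where 12.7% of all tested genes were called, with a median log2 fold change of 0.01. Son, a G-patch protein of nuclear speckles, was at 28.4, 27.8 and 28.3 FPKM in WT and rose to 30.4, 31.3 and 29.9 in the libraries labelled KO (0.10, edgeR adjusted p = 0.0358). It was the 1 call among 19 G-patch genes, a class that activates DEAH-box helicases. Nkrf, also of that class, was at 1.44 FPKM in WT and 1.14 in the libraries labelled KO, just short of a call (-0.35, edgeR adjusted p = 0.0509). Patl1, which bridges Ddx6 to the decapping enzyme, fell from 17.3 to 15.3 FPKM (-0.20, edgeR adjusted p = 0.0211) and was the 1 call among 9 partners of Ddx6. The libraries labelled KO gave 15.1, 15.0 and 15.7 FPKM for Patl1, all below the WT values of 17.3, 17.7 and 16.8. Lsm14b, another partner of Ddx6, was at 5.67 FPKM in WT and 7.17 in the libraries labelled KO and was not called (0.32, edgeR adjusted p = 0.0629). No gene was called among 12 rows of the TREX complex, to which Ddx39b belongs. The same held for 4 genes linked to the work of Ddx19 in export (Gle1, Nup214, Nup88 and Ippk) and 4 genes of the exon junction complex. It also held for 4 Ski2-like helicases, and for Drosha and Dgcr8, which work with Ddx5. The TREX rows were not all flat. Sarnp was at 6.95, 5.85 and 5.57 FPKM in WT and 4.91, 4.41 and 4.53 in the libraries labelled KO (-0.42, edgeR adjusted p = 0.0542). The main row of Zc3h11a was at 2.03 FPKM in WT and 2.59 in the libraries labelled KO (0.34, edgeR adjusted p = 0.473). A second row of Zc3h11a, over nearly the same span, was at 5.77 (edgeR adjusted p = 0.0733). It rests on counts of 5, 5 and 0 in WT and 40, 519 and 24 in the libraries labelled KO. How reads were split between these rows was not tested. The DEAD-box initiation factor Eif4a1, whose name falls outside the rule, was at 63.8 ± 3.33 FPKM in WT and 59.3 ± 0.72 in the libraries labelled KO (SD, n = 3 libraries), and neither it, Eif4a2 nor Eif4a3 was called, at log2 fold changes of -0.12, -0.09 and -0.10.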

How the data were processed

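RNA was measured by sequencing in 6 libraries, 3 labelled WT and 3 labelled KO. The RNA was poly(A)-selected and fragmented ahead of cDNA synthesis, per the labels' protocols. The submitters' processing notes name StringTie 1.3.4d, HISAT2 2.0.4, cutadapt 1.9 and the build mm10. Their settings, the annotation and the kit's strand are not stated there. Per the file headers, the authors deposited an FPKM value and an estimated count per gene and library. Genes at a count of 0 carry an FPKM of 0.0001. Multiples of 4 were 36.9% to 40.4% of the counts from 1 to 20, so low counts are not tallies of single reads. Totals were 67280390, 68001446 and 68658821 in WT and 75201178, 68145877 and 77997742 in the libraries labelled KO.

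From the rounded counts, edgeR 4.0.16 under R 4.3.3 fitted all 6 libraries (TMM, filterByExpr with minimum count 10 and total 15, glmQLFit, glmQLFTest), with the Benjamini-Hochberg adjustment over 16256 genes. The 95% limits use the t distribution on 4 residual degrees of freedom. The script was tested on simulated data. Alternatives were DESeq2 1.42.0, limma 3.58.1 on log2 values of FPKM plus 0.1, 1 or 0.01, other filters and scalings, a replicate block, and each library left out. The helicase genes, their roles and the partner lists were chosen with earlier results of these data known. Named with full values are Mettl3, called genes, the 6 most abundant genes, the paralog pairs, Ddx60 and called partners; values by library of other genes were chosen after they were seen. Gene positions are those of the deposited table; overlaps and shared 50-base stretches come from GENCODE M21, and start sites and promoters from RefSeq (GRCm38.p6), which held 45 of the 50 genes.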

Additional observations from a re-analysis of the deposited data

How the results depend on the processing

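Over 15 alternative settings, 639 of 717 values for single helicase genes kept their direction and their side of the threshold, 29 lost a call, 5 gained one and 44 changed sign, the last in 10 genes near 0. All genes called numbered 2060, and 1244 to 1339 with 1 library left out. Helicase genes called higher numbered 5, and 1 to 2 with 1 library left out; those called lower numbered 0, and 0 to 1 with 1 library left out, 1 with DESeq2 (Ddx5) and 1 with the FPKM filter (Ddx47). Whether the replicate numbers pair the samples is not stated in the labels. Correlations of deviations were 0.01, -0.06 and -0.04 between same-numbered libraries and -0.08 to 0.11 between the others. So few libraries cannot settle how they were prepared. With the replicate number as a block, 1012 genes were called and 1 helicase gene higher, Ddx39b. The log2 fold change of Mettl3 ran from -0.07 to 0.11 with 1 library left out. Without Ddx5, the ratio of summed helicase FPKM was 1.03. At library totals alone and in all 3 limma fits, values that changed sign were 0.01 for Ddx18, Ddx39 and Dhx34 and 0.001 for Ddx3x. Ddx59 changed sign with limma (0.01, and 0.003 at a pseudocount of 1), and Dhx57 with no filter (-0.001), the FPKM filter (-0.005) and median-of-ratios factors (-0.001). With 1 library left out, log2 fold changes ran from -0.05 to 0.01 for Ddx18, -0.04 to 0.02 for Ddx39, -0.13 to 0.07 for Ddx59, -0.12 to 0.03 for Ddx56, -0.06 to 0.04 for Ddx10, -0.03 to 0.10 for Ddx51, -0.04 to 0.03 for Dhx34, -0.05 to 0.04 for Dhx57, -0.03 to 0.004 for Ddx3x and -0.005 to 0.11 for Ddx55. For these the cause was not tested, beyond the smaller number of libraries when 1 is left out. Library totals alone moved the higher share of calls from 55.3% to 61.5%. Low counts limit Ddx4 and Dhx58os most.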
